A study of Bos indicus x Bos taurus with 20 samples.

Results

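Transcripts of 39 genes that drive the cell cycle were followed in bovine embryos at the 2-cell and 8-cell stages: cyclins, cyclin-dependent kinases (CDKs) and their inhibitors, the kinases and phosphatases that switch CDK1 on and off, and the kinases and checkpoint proteins of mitosis. The genes were chosen by symbol, and all 39 were found among the 30675 genes of the table that holds both stages. Of these, 38 passed the filter on low counts that left 16149 genes for testing, and CCND1 did not. The embryos were wild type, of the hybrid Bos indicus x Bos taurus. As zygotes they had received either METTL7A mRNA transcribed in vitro (METTL7A-injected) or vehicle alone (Control), and METTL7A is a membrane-bound methyltransferase of the endoplasmic reticulum. The 4 groups were METTL7A-injected 8-cell, Control 8-cell, METTL7A-injected 2-cell and Control 2-cell embryos, with 2 libraries each. No group received another mRNA, so an effect of METTL7A and one of injecting mRNA cannot be told apart. How many embryos went into a library is not given in the sources used here. The 12 blastocyst libraries of the study were not used here.

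A cell divides when cyclins bind and activate CDKs: D and E cyclins with CDK4, CDK6 and CDK2 carry it into S phase, and A and B cyclins with CDK1 carry it into mitosis. WEE and PKMYT1 kinases hold CDK1 inactive by phosphorylation, CDC25 phosphatases release it, and the anaphase-promoting complex with CDC20 or FZR1 ends mitosis by marking cyclins for destruction. The first cleavages of the embryo run on mRNA and protein laid down in the oocyte, and in cattle the embryo's own genome becomes broadly active around the 8-cell stage. Several cell cycle genes have a relative that is used mainly in germ cells: CCNA1, CCNB3, WEE2, AURKC and MOS are the ones followed here, and these roles are known chiefly from mouse and human.

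Each library held 15781017 to 20737404 reads on named genes, and levels are given in CPM, the count of a gene divided by library size, which was scaled by the TMM method. Counts were not divided by transcript length, so levels are compared between libraries and not between genes. The libraries were made from polyadenylated RNA, so that a longer poly(A) tail on a stored transcript and more of the transcript cannot be told apart, and neither can less RNA per cell and fewer cells. METTL7A took 1.61% to 5.23% of the reads of injected libraries and at most 0.00223% of Control libraries. The oocyte genes GDF9, BMP15, ZAR1, NLRP5, ZP3 and BTG4 were read in all 8 libraries. BTG4 was higher at the 8-cell stage, at 10069 to 28056 CPM against 5149 to 9212 CPM. The other oocyte genes were lower in every 8-cell than in every 2-cell library. KLF17, a gene of genome activation, stood at 2349 and 3112 CPM in METTL7A-injected 8-cell, 465 and 1681 CPM in Control 8-cell, and 1.02 to 1.57 CPM in 2-cell libraries. DUXA, ARGFX and TFAP2C, also genes of genome activation, were likewise higher in every 8-cell library. ZSCAN4, another such gene, was not. It stood at 84.0 and 125.5 CPM in METTL7A-injected 8-cell, 24.6 and 66.6 CPM in Control 8-cell and 74.7 to 92.8 CPM in 2-cell libraries. Control 8-cell replicate 1 stood apart. The 39 genes held 0.766% of its reads against 1.436% to 1.68% in the other 7 libraries, and 18 markers of cumulus, granulosa and stromal cells summed to 6849 CPM in it, against 1326 CPM in Control 8-cell replicate 2, 276 and 285 CPM in the METTL7A-injected 8-cell libraries and 487 to 569 CPM at the 2-cell stage. STAR, HAS2, FBN1 and VCAN made up 68.3% to 83.2% of that sum in the METTL7A-injected 8-cell, 6.03% and 18% in the Control 8-cell and 96% to 96.4% in the 2-cell libraries. The other 14 markers summed to 46.4 and 90.4 CPM in METTL7A-injected 8-cell, 6436 and 1088 CPM in Control 8-cell, and 18.1 to 21.7 CPM in 2-cell libraries. Of 17 markers tested, 6 were called higher and 2 lower at the 8-cell than at the 2-cell stage after METTL7A, and 13 higher and 3 lower in Control. Of the 39 genes, 25 had their lowest level among the 4 8-cell libraries in Control replicate 1 and 9 their highest. Between replicates, counts of the 2 Control 2-cell libraries differed far less (chi-square per degree of freedom 2.48) than those of the other 3 groups (45.5 to 330.1).

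From the 2-cell to the 8-cell stage, these genes changed level in both directions, in METTL7A-injected and in Control embryos. In METTL7A-injected embryos 13 were higher at the 8-cell stage, 8 were lower and 17 did not pass the test (edgeR quasi-likelihood, Benjamini-Hochberg adjusted p under 0.05 over all genes tested). In Control embryos 13 were higher, 10 lower and 15 not past it. These are 55.3% and 60.5% of the 38 genes tested, where 40.2% and 52.7% of all 16149 genes were called in METTL7A-injected and Control embryos (23.1% higher and 17.1% lower after METTL7A, 29.9% higher and 22.8% lower in Control). The median log2 fold change of the 38 genes was 0.34 after METTL7A and 0.20 in Control, against 0.04 and 0.18 over all genes. The medians of these genes turned negative with total counts in place of TMM, at -0.15 after METTL7A and -0.04 in Control, and the Control median did so without Control 8-cell replicate 2, at -0.38. The stage comparisons of METTL7A-injected and Control embryos share no library. In both, 11 genes were higher (CCNA1, CCNE1, CCNE2, CDK1, CDK6, CDKN2C, CDKN2D, WEE1, AURKB, PLK4 and MAD2L1) and 7 were lower (PKMYT1, CDC25A, CDC25B, PLK1, BUB1B, TTK and FZR1). Over all genes 18.6% were higher in both, 13.3% lower in both and 0.136% higher in one and lower in the other, as 0 of these genes were. A fit without 1 library leaves its group with 1 library and takes the spread from the other groups. Leaving out either Control 8-cell library added calls after METTL7A, among these genes and over all genes. Those libraries enter that comparison only through the filter, the scaling and the shared spread. Without replicate 1 the added genes had log2 fold changes of -0.66 (CCNA2), -0.66 (CCNB3), 4.03 (CCND2), -1.15 (WEE2), 1.03 (CDC25C), -0.87 (CDC20) and -1.04 (MOS). With total counts the median of all genes moved to -0.41 after METTL7A and -0.07 in Control. After METTL7A 10 of the 38 genes were then higher and 12 lower, against 18.6% and 26.3% of all genes. No called gene changed direction under any of 4 scalings.

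**Figure D1:**
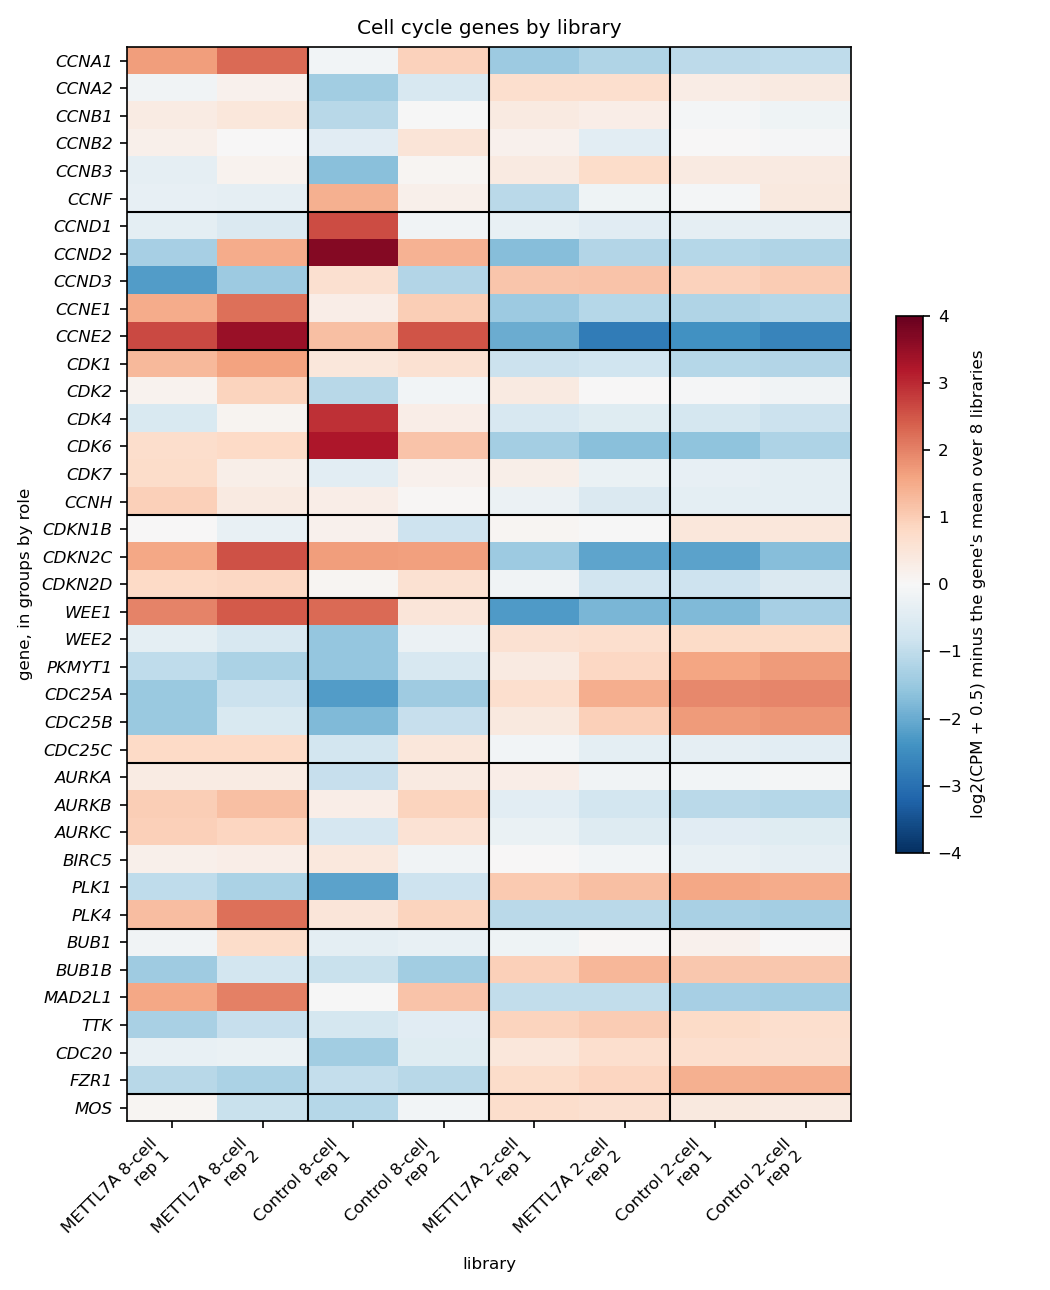
Level of each of the 39 genes (rows, in groups by role) in the 8 libraries (columns), as log2(CPM + 0.5) minus the mean of the gene over the 8 libraries, red for high and blue for low. CCNE2, WEE1, PLK4 and MAD2L1 are above their mean at the 8-cell stage or close to it and CDC25A, PLK1 and FZR1 below it, and CDK4 and CDK6 are highest in Control 8-cell replicate 1.

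The mitotic cyclins moved apart. CCNA1, the A cyclin of germ cells, rose, and CCNA2, the A cyclin of dividing somatic cells, fell in Control embryos. CCNA1 was measured at 89.5 and 134 CPM in METTL7A-injected 8-cell embryos and 25.3 and 52.4 CPM in Control 8-cell embryos. CCNA1 at the 2-cell stage stood at 9.79 and 11.7 CPM in METTL7A-injected embryos, against 13.0 and 13.2 CPM in Control embryos. All 4 8-cell libraries lay above all 4 2-cell libraries, with a log2 fold change, 8-cell over 2-cell, of 3.37 (adjusted p = 0.000407, SE 0.43) after METTL7A and 1.56 (adjusted p = 0.00992, SE 0.40) in Control. CCNA2 stood at 399 and 499.7 CPM in METTL7A-injected 8-cell embryos and 166 and 282 CPM in Control 8-cell embryos. For CCNA2 the 2-cell libraries held 707 and 694 CPM in METTL7A-injected embryos and 536 and 562 CPM in Control embryos. Here each 8-cell library was lower than each 2-cell library, and the log2 fold change was -0.64 (adjusted p = 0.143, SE 0.32) after METTL7A and -1.29 (adjusted p = 0.0092, SE 0.33) in Control. The Control change of CCNA1 was 0.90 (adjusted p = 0.0278) without Control 8-cell replicate 2, and it was no longer called when either Control 2-cell library was left out, at 1.52 (adjusted p = 0.0746) without replicate 1 and 1.53 (adjusted p = 0.0738) without replicate 2. The call for CCNA2 was lost without Control 2-cell replicate 2, at -1.31 (adjusted p = 0.0534).

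None of the B cyclins, which carry CDK1 into mitosis, passed the test between stages. CCNB1 was at 2662 and 2892 CPM in METTL7A-injected 8-cell embryos and 991 and 2086 CPM in Control 8-cell embryos. CCNB1 had 2-cell values of 2709 and 2554 CPM in METTL7A-injected embryos and 2025 and 1904 CPM in Control embryos. CCNB2 was at 389.8 and 341 CPM in METTL7A-injected 8-cell embryos and 247 and 477 CPM in Control 8-cell embryos. CCNB2 at the 2-cell stage stood at 378 and 254 CPM in METTL7A-injected embryos, against 337 and 324 CPM in Control embryos. CCNB3, which acts in oocyte meiosis in mouse, had 515 and 726 CPM in METTL7A-injected 8-cell embryos and 206 and 693 CPM in Control 8-cell embryos. For CCNB3 the 2-cell libraries held 847 and 1090.0 CPM in METTL7A-injected embryos and 845 and 834 CPM in Control embryos. CCNB1 and CCNB2 overlapped between the stages in both treatments. CCNB3 was lower in each 8-cell than in each 2-cell library. In all 3 Control 8-cell replicate 1 was lower than replicate 2. Their log2 fold changes were 0.08 (adjusted p = 0.891) after METTL7A and -0.35 (adjusted p = 0.46) in Control for CCNB1, 0.21 (adjusted p = 0.672) after METTL7A and 0.13 (adjusted p = 0.781) in Control for CCNB2, and -0.64 (adjusted p = 0.334) after METTL7A and -0.90 (adjusted p = 0.157) in Control for CCNB3. With replicate 1 as the only Control 8-cell library, the Control values were -1.04 for CCNB1 and -2.08 for CCNB3. CCNF, which is a substrate adaptor of a ubiquitin ligase rather than a CDK activator, was a low transcript of 0.455 to 4.94 CPM over all libraries and did not pass the test.

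Both E cyclins, the partners of CDK2 at the start of S phase, rose, CCNE2 with a log2 fold change above that of CCNE1, a difference between genes that was not tested. CCNE2 had 109.9 and 194 CPM in METTL7A-injected 8-cell embryos and 40.1 and 102 CPM in Control 8-cell embryos. CCNE2 had 2-cell values of 3.98 and 2.08 CPM in METTL7A-injected embryos and 2.85 and 2.38 CPM in Control embryos. CCNE1 had 161 and 261 CPM in METTL7A-injected 8-cell embryos and 68.8 and 114 CPM in Control 8-cell embryos. CCNE1 at the 2-cell stage stood at 20.3 and 25.4 CPM in METTL7A-injected embryos, against 24.1 and 25.7 CPM in Control embryos. No 2-cell library of either gene reached the lowest 8-cell library. The log2 fold change of CCNE2 was 5.65 (adjusted p = 0.00018, SE 0.61) after METTL7A and 4.76 (adjusted p = 0.00032, SE 0.58) in Control, and that of CCNE1 was 3.21 (adjusted p = 0.00029, SE 0.38) after METTL7A and 1.87 (adjusted p = 0.00259, SE 0.36) in Control.

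The D cyclins, which answer to growth signals and bind CDK4 and CDK6, were low transcripts. CCND1 and CCND2 were highest in Control 8-cell replicate 1, and CCND3 was highest at the 2-cell stage. CCND3 had 0.812 and 1.76 CPM in METTL7A-injected 8-cell embryos and 9.15 and 2.29 CPM in Control 8-cell embryos. For CCND3 the 2-cell libraries held 12.9 and 13.3 CPM in METTL7A-injected embryos and 11.4 and 12.2 CPM in Control embryos. It fell after METTL7A, with a log2 fold change of -3.35 (adjusted p = 0.00538, SE 0.71), and in Control the value was -1.04 (adjusted p = 0.191, SE 0.63). Without METTL7A 8-cell replicate 1 the first was -2.94 and no longer called. With replicate 2 as the only Control 8-cell library the second was -2.38. CCND2 had 0.148 and 4.10 CPM in METTL7A-injected 8-cell embryos and 20.2 and 3.82 CPM in Control 8-cell embryos. CCND2 had 2-cell values of 0 and 0.221 CPM in METTL7A-injected embryos and 0.248 and 0.216 CPM in Control embryos, and the count was 0 in METTL7A 2-cell replicate 1. It rose in Control, at 5.65 (adjusted p = 0.0114, SE 1.49), and stood at 4.06 (adjusted p = 0.0635, SE 1.55) after METTL7A, where it was 4.98 without METTL7A 8-cell replicate 1. That Control call was lost without either Control 2-cell library, at 5.72 (adjusted p = 0.0552) without replicate 1 and 5.51 (adjusted p = 0.0588) without replicate 2. CCND1 had 76 reads in the Control 8-cell libraries, 73 of them in replicate 1, against 4 reads in the Control 2-cell libraries, which is 25.8 times as many at equal library size (exact binomial 95% limits 9.68 and 97.2). It had 1 read in the METTL7A-injected 8-cell and 3 in the METTL7A-injected 2-cell libraries, too few for a fold. Such limits cover counting error only.

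Among the kinases, CDK1 rose, CDK2 and CDK7 did not pass the test, and of the low transcripts CDK6 rose in both treatments and CDK4 in Control. CDK1, the kinase of mitosis, had 1044 and 1313 CPM in METTL7A-injected 8-cell embryos and 585 and 656 CPM in Control 8-cell embryos. CDK1 at the 2-cell stage stood at 238 and 244 CPM in METTL7A-injected embryos, against 196 and 189 CPM in Control embryos. The stages did not overlap in CDK1, and its log2 fold change was 2.29 (adjusted p = 0.000367, SE 0.29) after METTL7A and 1.69 (adjusted p = 0.00126, SE 0.28) in Control. CDK2 had 228 and 383 CPM in METTL7A-injected 8-cell embryos and 95.7 and 190.1 CPM in Control 8-cell embryos. For CDK2 the 2-cell libraries held 267 and 211 CPM in METTL7A-injected embryos and 199 and 186 CPM in Control embryos. Its values overlap between the stages, with 0.35 (adjusted p = 0.495) after METTL7A and -0.43 (adjusted p = 0.373) in Control. The Control value of CDK2 was -1.06 with replicate 1 as the only Control 8-cell library. CDK7, which with CCNH activates the other CDKs and also serves transcription, had 218 to 481 CPM over the 8 libraries, with 0.50 (adjusted p = 0.254) after METTL7A and 0.28 (adjusted p = 0.502) in Control. Its partner CCNH had 109.7 and 72.5 CPM in METTL7A-injected 8-cell embryos and 68.4 and 58.0 CPM in Control 8-cell embryos. CCNH had 2-cell values of 47.7 and 37.9 CPM in METTL7A-injected embryos and 43.1 and 43.1 CPM in Control embryos. CCNH rose after METTL7A, at 1.09 (adjusted p = 0.0202, SE 0.31), and stood at 0.55 (adjusted p = 0.156, SE 0.31) in Control. The CCNH call was lost without METTL7A 8-cell replicate 1, at 0.71 (adjusted p = 0.154), without METTL7A 2-cell replicates 1 and 2, at 1.21 (adjusted p = 0.073) and 0.91 (adjusted p = 0.16), without either Control 2-cell library, at 0.98 (adjusted p = 0.0836) and 0.97 (adjusted p = 0.0842), and with total counts, at 0.64 (adjusted p = 0.151).

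CDK6 had 5.98 and 6.37 CPM in METTL7A-injected 8-cell embryos and 36.9 and 8.22 CPM in Control 8-cell embryos. CDK6 at the 2-cell stage stood at 1.02 and 0.753 CPM in METTL7A-injected embryos, against 0.784 and 1.17 CPM in Control embryos. CDK4 had 4.58 and 7.87 CPM in METTL7A-injected 8-cell embryos and 58.0 and 8.92 CPM in Control 8-cell embryos. For CDK4 the 2-cell libraries held 4.55 and 5.13 CPM in METTL7A-injected embryos and 4.33 and 3.76 CPM in Control embryos. Both were highest in Control 8-cell replicate 1, by a factor that set it apart from all other libraries, and CDK6 was also higher in the other 3 8-cell libraries than in any 2-cell library. CDK6 rose by a log2 fold change of 2.79 (adjusted p = 0.0132, SE 0.72) after METTL7A and 4.52 (adjusted p = 0.00125, SE 0.75) in Control. CDK4 rose in Control, at 3.05 (adjusted p = 0.00944, SE 0.77), and stood at 0.36 (adjusted p = 0.726, SE 0.73) after METTL7A. With Control 8-cell replicate 1 left out, the Control values were 1.12 (adjusted p = 0.0499) for CDK4 and 3.05 (adjusted p = 0.000601) for CDK6. The CDK4 call was lost without Control 2-cell replicate 2, at 2.90 (adjusted p = 0.0575). After METTL7A the CDK6 call was lost without any 1 of the 4 METTL7A-injected libraries (log2 fold change 2.56 to 2.97, adjusted p = 0.0544 to 0.116). The sum of the 18 somatic cell markers, and 13 of them singly, were also highest in Control 8-cell replicate 1, and their part in the levels of CDK4 and CDK6 was not tested.

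**Figure D2:**
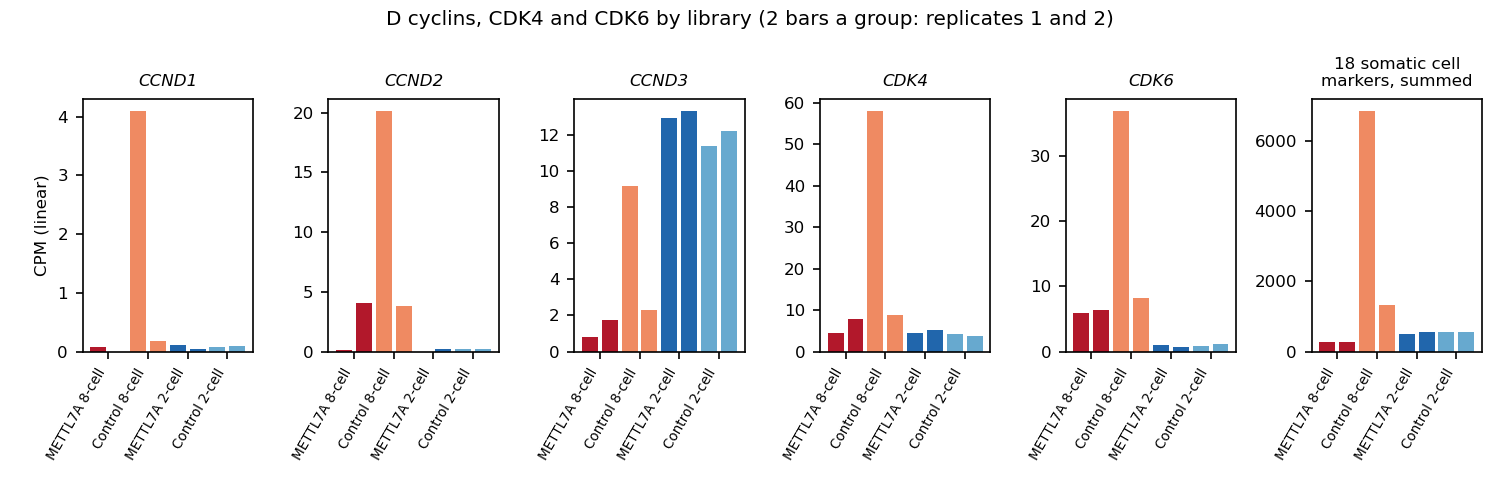
CPM of CCND1, CCND2, CCND3, CDK4 and CDK6, and the summed CPM of 18 somatic cell markers, in each library on linear axes that start at 0 (2 bars a group, replicates 1 and 2). CCND1, CCND2, CDK4, CDK6 and the marker sum are all highest in Control 8-cell replicate 1 (58.0 CPM for CDK4 and 6849 CPM for the markers), whereas CCND3 is highest at the 2-cell stage (11.4 to 13.3 CPM).

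Of the CDK inhibitors, CDKN2C (p18) and CDKN2D (p19), which block CDK4 and CDK6, rose, and CDKN1B (p27), which acts on CDK2 complexes, did not pass the test. CDKN2C had 31.4 and 62.7 CPM in METTL7A-injected 8-cell embryos and 34.2 and 33.5 CPM in Control 8-cell embryos. CDKN2C had 2-cell values of 3.47 and 2.04 CPM in METTL7A-injected embryos and 1.98 and 2.81 CPM in Control embryos. All 8-cell values were far above all 2-cell values, with a log2 fold change of 4.10 (adjusted p = 0.000335, SE 0.50) after METTL7A and 3.82 (adjusted p = 0.000405, SE 0.49) in Control. CDKN2D had 29.1 and 29.5 CPM in METTL7A-injected 8-cell embryos and 17.2 and 25.4 CPM in Control 8-cell embryos. CDKN2D at the 2-cell stage stood at 14.7 and 9.34 CPM in METTL7A-injected embryos, against 8.91 and 10.9 CPM in Control embryos. It again had no overlap, with 1.28 (adjusted p = 0.0273, SE 0.39) after METTL7A and 1.10 (adjusted p = 0.0384, SE 0.39) in Control. The calls for CDKN2D were not firm: leaving out 1 library gave adjusted p = 0.0594 to 0.205 after METTL7A without any of 6 libraries, and 0.055 to 0.264 in Control without any of 7. CDKN1B had 1.29 to 3.09 CPM at the 8-cell and up to 3.89 CPM at the 2-cell stage. Its Control value was -0.82 (adjusted p = 0.249, SE 0.57), and -1.60 with replicate 2 as the only Control 8-cell library.

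Transcripts of the switch that controls CDK1 moved in both directions: WEE1 rose, PKMYT1, CDC25A and CDC25B fell, WEE2 fell in Control embryos, and CDC25C did not pass the test. WEE1, the CDK1-inhibiting kinase of somatic cells, had 13.3 and 18.6 CPM in METTL7A-injected 8-cell embryos and 16.3 and 4.40 CPM in Control 8-cell embryos. For WEE1 the 2-cell libraries held 0.228 and 0.487 CPM in METTL7A-injected embryos and 0.536 and 0.909 CPM in Control embryos. It was nearly absent at the 2-cell stage, with 4 to 21 reads a library, and its log2 fold change was 5.43 (adjusted p = 0.000902, SE 0.81) after METTL7A and 3.83 (adjusted p = 0.00254, SE 0.73) in Control. WEE2, the oocyte form of the kinase, had 606 and 514 CPM in METTL7A-injected 8-cell embryos and 270.5 and 677 CPM in Control 8-cell embryos. WEE2 had 2-cell values of 1199 and 1259 CPM in METTL7A-injected embryos and 1361 and 1347 CPM in Control embryos. WEE2 was lower in each 8-cell than in each 2-cell library, and its log2 fold change was -1.13 (adjusted p = 0.0544, SE 0.41) after METTL7A and -1.52 (adjusted p = 0.0139, SE 0.42) in Control. The WEE2 value in Control was -2.37 (adjusted p = 4.31e-05) without Control 8-cell replicate 2, and its call was lost without Control 2-cell replicate 1, at -1.54 (adjusted p = 0.0541). PKMYT1, the membrane-bound relative of WEE1, was a low transcript with 0.886 and 0.670 CPM in METTL7A-injected 8-cell embryos and 0.449 and 1.29 CPM in Control 8-cell embryos. PKMYT1 at the 2-cell stage stood at 3.13 and 4.47 CPM in METTL7A-injected embryos, against 7.84 and 8.65 CPM in Control embryos. It fell, with a log2 fold change of -2.28 (adjusted p = 0.019, SE 0.64) after METTL7A and -3.24 (adjusted p = 0.00283, SE 0.64) in Control, and the call after METTL7A was lost without METTL7A 8-cell replicate 1, at -2.54 (adjusted p = 0.0697), without METTL7A 8-cell replicate 2, at -2.14 (adjusted p = 0.106), and without METTL7A 2-cell replicate 2, at -2.02 (adjusted p = 0.114).

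The CDC25 phosphatases, which remove the inhibitory phosphates, did not move together. CDC25A had 25.9 and 40.0 CPM in METTL7A-injected 8-cell embryos and 15.3 and 26.8 CPM in Control 8-cell embryos. For CDC25A the 2-cell libraries held 117 and 199.9 CPM in METTL7A-injected embryos and 275 and 287 CPM in Control embryos. CDC25B had 15.7 and 29.1 CPM in METTL7A-injected 8-cell embryos and 13.0 and 23.4 CPM in Control 8-cell embryos. CDC25B had 2-cell values of 58.5 and 88.4 CPM in METTL7A-injected embryos and 147 and 155 CPM in Control embryos. Both fell between the stages, CDC25A with -2.27 (adjusted p = 0.0023, SE 0.40) after METTL7A and -3.74 (adjusted p = 0.000248, SE 0.43) in Control, and CDC25B with -1.72 (adjusted p = 0.0101, SE 0.42) after METTL7A and -3.05 (adjusted p = 0.000631, SE 0.44) in Control. CDC25B after METTL7A was -1.39 (adjusted p = 0.0812) without METTL7A 8-cell replicate 1 and -1.41 (adjusted p = 0.0887) without METTL7A 2-cell replicate 2. CDC25C had 833 and 825 CPM in METTL7A-injected 8-cell embryos and 285 and 654 CPM in Control 8-cell embryos. CDC25C at the 2-cell stage stood at 439.7 and 362 CPM in METTL7A-injected embryos, against 372 and 356 CPM in Control embryos. It overlapped between stages in Control through replicate 1 and not after METTL7A, and its log2 fold change was 1.05 (adjusted p = 0.057, SE 0.39) after METTL7A and 0.37 (adjusted p = 0.445, SE 0.38) in Control. The Control value of CDC25C was 0.83 with replicate 2 as the only Control 8-cell library.

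The 3 Aurora kinases, of spindle and centromere, did not change together. AURKA, which builds the spindle poles, had 5122 and 5214 CPM in METTL7A-injected 8-cell embryos and 2169 and 5234 CPM in Control 8-cell embryos. For AURKA the 2-cell libraries held 4914 and 3715 CPM in METTL7A-injected embryos and 3771 and 3898 CPM in Control embryos. It did not pass the test, with 0.26 (adjusted p = 0.659) after METTL7A and -0.05 (adjusted p = 0.93) in Control. The Control value of AURKA was -0.87 with replicate 1 as the only Control 8-cell library. AURKB, the kinase of the chromosomal passenger complex, had 422 and 489 CPM in METTL7A-injected 8-cell embryos and 253 and 391 CPM in Control 8-cell embryos. AURKB had 2-cell values of 157 and 128 CPM in METTL7A-injected embryos and 101 and 94.6 CPM in Control embryos. AURKB rose by a log2 fold change of 1.68 (adjusted p = 0.00271, SE 0.31) after METTL7A and 1.72 (adjusted p = 0.0018, SE 0.31) in Control, and all 8-cell libraries lay above all 2-cell libraries. AURKC, its relative in germ cells, had 1265 and 1169 CPM in METTL7A-injected 8-cell embryos and 406 and 974 CPM in Control 8-cell embryos. AURKC at the 2-cell stage stood at 537 and 455 CPM in METTL7A-injected embryos, against 472 and 464 CPM in Control embryos. AURKC rose after METTL7A, at 1.30 (adjusted p = 0.0298, SE 0.40), and stood at 0.56 (adjusted p = 0.261, SE 0.40) in Control. Its Control value was 1.04 with replicate 2 as the only Control 8-cell library. The AURKC call after METTL7A was lost without any 1 of the 4 METTL7A-injected libraries (log2 fold change 1.16 to 1.37, adjusted p = 0.121 to 0.199), without either Control 2-cell library (adjusted p = 0.0732 without each) and with total counts (0.83, adjusted p = 0.136). BIRC5, known as survivin and a partner of AURKB, had 149 to 223 CPM at the 8-cell and 129 to 165 CPM at the 2-cell stage. It was not called in either treatment. Its Control value was 0.72 with replicate 1 as the only Control 8-cell library.

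The Polo-like kinases changed in opposite directions. PLK1, which acts through mitosis from entry to division, had 71.1 and 60.1 CPM in METTL7A-injected 8-cell embryos and 32.5 and 81.4 CPM in Control 8-cell embryos. For PLK1 the 2-cell libraries held 299 and 335 CPM in METTL7A-injected embryos and 425 and 411 CPM in Control embryos. PLK4, which starts the duplication of centrioles, had 134 and 261 CPM in METTL7A-injected 8-cell embryos and 79.7 and 106 CPM in Control 8-cell embryos. PLK4 had 2-cell values of 26.8 and 26.5 CPM in METTL7A-injected embryos and 22.9 and 22.0 CPM in Control embryos. Neither gene overlapped between the stages. PLK1 fell, with a log2 fold change of -2.27 (adjusted p = 0.00262, SE 0.41) after METTL7A and -2.88 (adjusted p = 0.00072, SE 0.42) in Control, and PLK4 rose, with a log2 fold change of 2.89 (adjusted p = 0.000445, SE 0.37) after METTL7A and 2.05 (adjusted p = 0.00169, SE 0.36) in Control.

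Of the spindle checkpoint, which holds anaphase until chromosomes are attached, MAD2L1 rose while BUB1B and TTK fell. MAD2L1 had 2327 and 3205 CPM in METTL7A-injected 8-cell embryos and 797 and 1778 CPM in Control 8-cell embryos. MAD2L1 at the 2-cell stage stood at 402 and 403 CPM in METTL7A-injected embryos, against 317 and 309 CPM in Control embryos. It rose, with a log2 fold change of 2.78 (adjusted p = 0.00102, SE 0.42) after METTL7A and 2.04 (adjusted p = 0.00325, SE 0.41) in Control, and the Control value was 1.30 (adjusted p = 0.0012) without Control 8-cell replicate 2. BUB1B had 29.9 and 48.2 CPM in METTL7A-injected 8-cell embryos and 42.9 and 30.1 CPM in Control 8-cell embryos. For BUB1B the 2-cell libraries held 156 and 202 CPM in METTL7A-injected embryos and 171 and 169.6 CPM in Control embryos. TTK had 42.8 and 55.9 CPM in METTL7A-injected 8-cell embryos and 63.9 and 76.9 CPM in Control 8-cell embryos. TTK had 2-cell values of 197 and 211 CPM in METTL7A-injected embryos and 181 and 169 CPM in Control embryos. In these kinases of the checkpoint every 8-cell value was below every 2-cell value, with log2 fold changes of -2.20 (adjusted p = 0.00114, SE 0.34) after METTL7A and -2.22 (adjusted p = 0.000877, SE 0.34) in Control for BUB1B and -2.05 (adjusted p = 0.000567, SE 0.28) after METTL7A and -1.31 (adjusted p = 0.00369, SE 0.27) in Control for TTK. BUB1, a kinetochore kinase, had 84.4 to 186 CPM at the 8-cell and 99.2 to 126 CPM at the 2-cell stage and did not pass the test.

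Of the activators of the anaphase-promoting complex, FZR1 fell in both treatments and CDC20 in Control. CDC20 had 147 and 149.8 CPM in METTL7A-injected 8-cell embryos and 68.2 and 131 CPM in Control 8-cell embryos. CDC20 at the 2-cell stage stood at 249 and 287 CPM in METTL7A-injected embryos, against 292 and 285 CPM in Control embryos. FZR1, which takes over from CDC20 at the end of mitosis, had 3.55 and 3.10 CPM in METTL7A-injected 8-cell embryos and 3.99 and 3.52 CPM in Control 8-cell embryos. For FZR1 the 2-cell libraries held 13.9 and 15.4 CPM in METTL7A-injected embryos and 22.7 and 23.2 CPM in Control embryos. FZR1 fell, with -2.14 (adjusted p = 0.00244, SE 0.39) after METTL7A and -2.61 (adjusted p = 0.00072, SE 0.39) in Control. CDC20 fell in Control, at -1.54 (adjusted p = 0.0049, SE 0.34), and stood at -0.85 (adjusted p = 0.0676, SE 0.33) after METTL7A. MOS, the kinase that holds the egg in metaphase of the second meiosis, had 416 and 215 CPM in METTL7A-injected 8-cell embryos and 179.6 and 366 CPM in Control 8-cell embryos. MOS had 2-cell values of 655 and 622 CPM in METTL7A-injected embryos and 518 and 508 CPM in Control embryos. Each 8-cell value of MOS was lower than each 2-cell value and the test was not passed, with -1.02 (adjusted p = 0.0796, SE 0.42) after METTL7A and -0.91 (adjusted p = 0.0923, SE 0.42) in Control. With replicate 1 as the only Control 8-cell library, the Control value of MOS was -1.56. MOS was called in Control without the low-count filter, at -0.97 (adjusted p = 0.0219). After METTL7A it was called with total counts, at -1.45 (adjusted p = 0.0302).

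**Figure D3:**
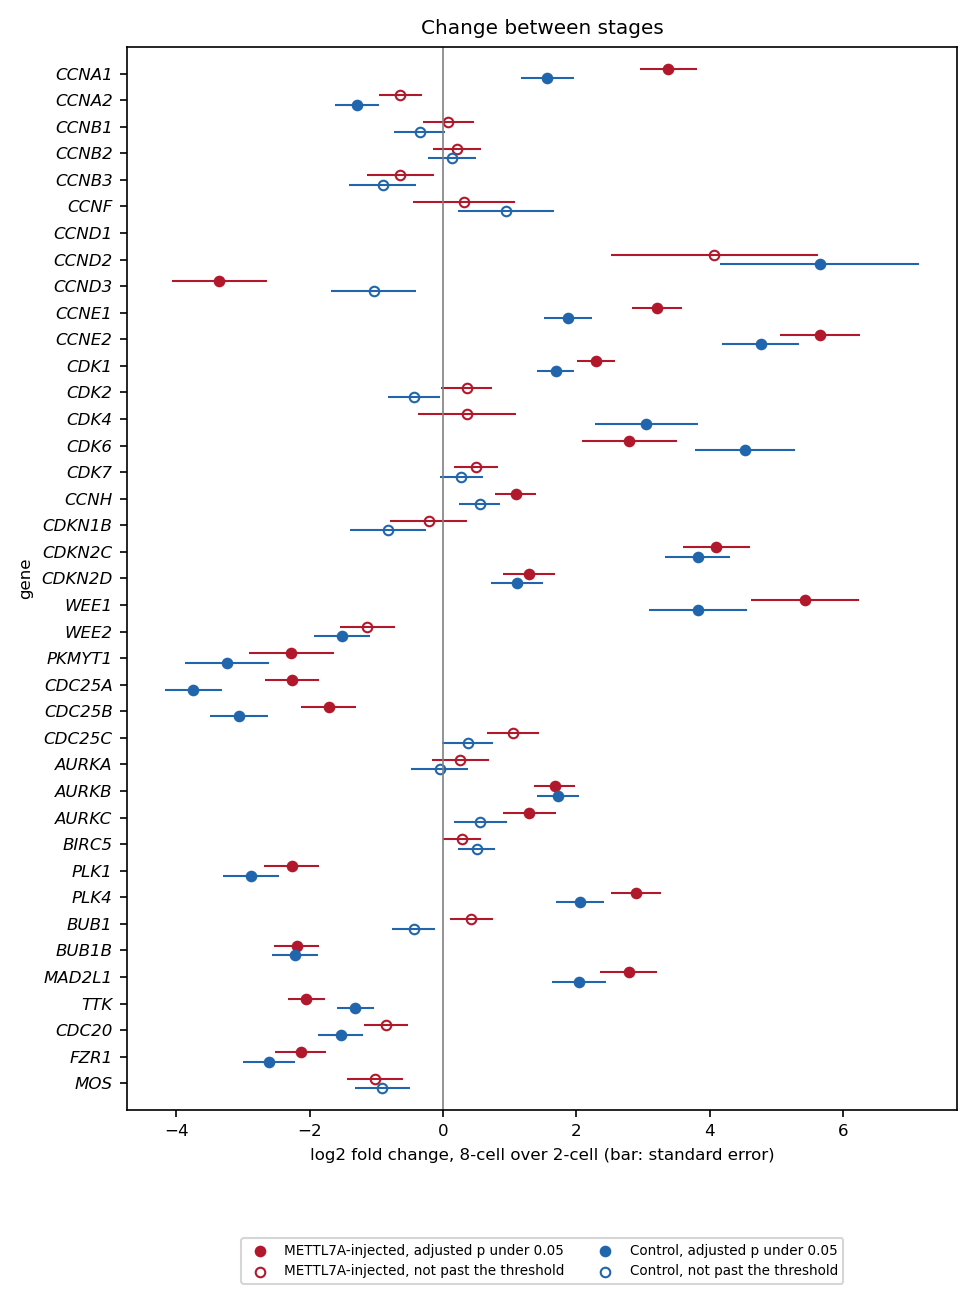
Log2 fold change of each gene from edgeR, 8-cell over 2-cell, in METTL7A-injected (red) and Control (blue) embryos, with the standard error as a bar and filled points for adjusted p under 0.05 (2 libraries a group; CCND1 was not tested). Among genes called in both, CCNE2 and WEE1 lie farthest right after METTL7A (5.65 and 5.43), and in Control CDK6 lies right of WEE1. CDC25A lies farthest left in Control (-3.74) and CCND3 farthest left after METTL7A (-3.35).

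Ratios of related genes within a library do not depend on library scaling, and they are given as a description with no test. Transcript length was not divided out, so that a ratio is compared between libraries only. The log2 ratio of WEE1 to WEE2 reads was -5.51 and -4.79 in METTL7A-injected 8-cell libraries and -4.05 and -7.26 in Control 8-cell libraries. WEE1 to WEE2 at the 2-cell stage was -12.19 and -11.27 in METTL7A-injected and -11.25 and -10.50 in Control libraries. It was higher in every 8-cell than in every 2-cell library. For CCNA1 to CCNA2 the ratio was -2.16 and -1.90 in METTL7A-injected 8-cell libraries and -2.71 and -2.43 in Control 8-cell libraries. CCNA1 to CCNA2 at the 2-cell stage was -6.17 and -5.88 in METTL7A-injected and -5.36 and -5.40 in Control libraries. The 2 ratios moved toward WEE1 and toward CCNA1, the gene of somatic cells in the one pair and of germ cells in the other. WEE1 was 3.70 times as high in Control 8-cell replicate 1, where the somatic cell markers summed highest, as in replicate 2. Over the 16 alternatives its Control log2 fold change between stages was 2.58 to 4.44. A part of somatic cells in the WEE1 level was not tested. The PLK1 to PLK4 ratio was lower at the 8-cell stage, at -0.91 and -2.12 in METTL7A-injected 8-cell libraries and -1.29 and -0.39 in Control 8-cell libraries. PLK1 to PLK4 at the 2-cell stage was 3.48 and 3.66 in METTL7A-injected and 4.21 and 4.22 in Control libraries. The ratio of CCNE1 to CCNE2 was 0.55 and 0.43 in METTL7A-injected 8-cell libraries and 0.78 and 0.15 in Control 8-cell libraries. CCNE1 to CCNE2 at the 2-cell stage was 2.34 and 3.59 in METTL7A-injected and 3.07 and 3.42 in Control libraries. It was lower in every 8-cell than in every 2-cell library. For CDC25A to CDC25C the ratio was -5.01 and -4.36 in METTL7A-injected 8-cell libraries and -4.22 and -4.61 in Control 8-cell libraries. CDC25A to CDC25C at the 2-cell stage was -1.91 and -0.86 in METTL7A-injected and -0.43 and -0.31 in Control libraries. The AURKA to AURKB ratio was also lower at the 8-cell stage, at 3.60 and 3.42 in METTL7A-injected 8-cell libraries and 3.10 and 3.74 in Control 8-cell libraries. AURKA to AURKB at the 2-cell stage was 4.96 and 4.86 in METTL7A-injected and 5.23 and 5.36 in Control libraries. CDC20 to FZR1, a ratio that was higher in each 8-cell than in each 2-cell library of METTL7A-injected embryos and of Control embryos, had 5.36 and 5.58 in METTL7A-injected 8-cell libraries and 4.09 and 5.20 in Control 8-cell libraries. CDC20 to FZR1 at the 2-cell stage was 4.16 and 4.22 in METTL7A-injected and 3.69 and 3.62 in Control libraries. Of the 5 genes used mainly in germ cells, 1 rose in both treatments (CCNA1), AURKC was called higher after METTL7A, WEE2 was called lower in Control, and CCNB3 and MOS were not called in either.

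**Figure D4:**
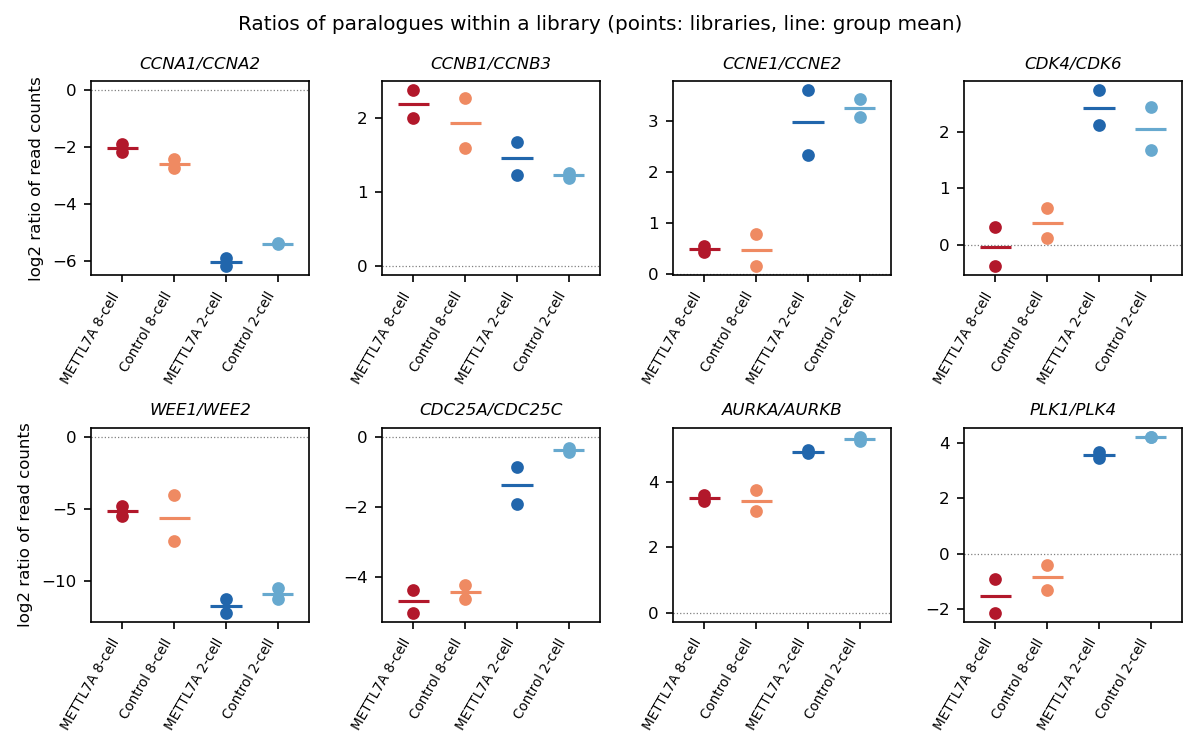
Log2 ratio of read counts (0.5 added to each count) of 8 pairs of related genes in each library, by group; points are libraries and lines group means, and each panel has its own axis. WEE1/WEE2 and CCNA1/CCNA2 are higher at the 8-cell stage, and PLK1/PLK4, CDC25A/CDC25C, CCNE1/CCNE2, CDK4/CDK6 and AURKA/AURKB are lower, in both treatments.

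METTL7A-injected 8-cell embryos did not differ from Control by the test in any of the 38 genes (0 higher, 0 lower), where 5.29% of all genes were called. At an unadjusted p under 0.05 edgeR gave 10 of the 38 genes (26.3%), a share near the 26.6% of all genes. DESeq2 called 9 of 39 after adjustment, where it called 9.79% of all genes. Its shares, here and below, are over the 24082 genes with any read, a wider set than the 16149 past the filter. The wider set holds more genes of low count. The median log2 fold change, METTL7A over Control, was 0.48 against 0.14 over all genes, with 30 values above 0 and 8 below. With total counts in place of TMM those medians were 0.14 and -0.18 and the split was 22 and 16, and the median was 0.30 against 0.09 without Control 8-cell replicate 1 and 0.83 against 0.28 without replicate 2. In 22 genes the libraries of the groups did not overlap (17 higher and 5 lower after METTL7A). The same held for 50.6% of all genes, 28.1% higher and 22.4% lower.

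The levels of the 10 genes at an unadjusted p under 0.05 are given as a description, since their share was that of all genes. CCNA1, CCNE1, CDK1, CCNA2, PLK4, CDK2 and MAD2L1 had higher levels after METTL7A. CCNA1 had 89.5 and 134 CPM in METTL7A-injected 8-cell embryos against 25.3 and 52.4 CPM in Control 8-cell embryos, a log2 fold change of 1.52 (adjusted p = 0.0574, SE 0.40). CDK1 had 1044 and 1313 CPM in METTL7A-injected 8-cell embryos against 585 and 656 CPM in Control 8-cell embryos, with 0.93 (adjusted p = 0.0789, SE 0.28). CCNE1 had 161 and 261 CPM in METTL7A-injected 8-cell embryos against 68.8 and 114 CPM in Control 8-cell embryos, with 1.21 (adjusted p = 0.0754, SE 0.35). In all 7 of these genes both injected libraries were above both Control libraries, and replicate 1 was the lower of the Control pair. For MAD2L1 the values were 2327 and 3205 CPM in METTL7A-injected 8-cell embryos against 797 and 1778 CPM in Control 8-cell embryos, with 1.10 (adjusted p = 0.126, SE 0.40). CCNA2 stood at 1.004 (adjusted p = 0.0953, SE 0.32), PLK4 at 1.08 (adjusted p = 0.096, SE 0.35) and CDK2 at 1.10 (adjusted p = 0.122, SE 0.39). Leaving out Control 8-cell replicate 1 gave 1.09 (adjusted p = 0.12) for CCNA1, 0.89 (adjusted p = 0.193) for CCNE1 and 0.84 (adjusted p = 0.106) for CDK1. In a fit that lacked Control 8-cell replicate 2, 25 of 39 genes were called, 19 higher and 6 lower, where 40.8% of all genes were called (20% higher and 20.8% lower). That fit had CCNA1 at 2.16 (adjusted p = 0.0015), whereas without Control replicate 1 no gene was.

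CDK4, CDK6 and CCND3 had lower levels after METTL7A. CDK4 had 4.58 and 7.87 CPM in METTL7A-injected 8-cell embryos against 58.0 and 8.92 CPM in Control 8-cell embryos, with -2.43 (adjusted p = 0.0873, SE 0.76). CDK6 had 5.98 and 6.37 CPM in METTL7A-injected 8-cell embryos against 36.9 and 8.22 CPM in Control 8-cell embryos, with -1.87 (adjusted p = 0.12, SE 0.66). CCND3 had 0.812 and 1.76 CPM in METTL7A-injected 8-cell embryos against 9.15 and 2.29 CPM in Control 8-cell embryos, with -2.16 (adjusted p = 0.0932, SE 0.69). In each the injected libraries were below both Control libraries, and Control replicate 1 was the higher of its pair. CCND2 had 0.148 and 4.10 CPM in METTL7A-injected 8-cell embryos against 20.2 and 3.82 CPM in Control 8-cell embryos, overlapping values, with -2.50 (adjusted p = 0.239, SE 1.26). CCND1 had 1 read after METTL7A against 76 in Control, which is 0.0180 times as many at equal library size (exact binomial 95% limits 0.00045 and 0.103). Those limits cover counting error only and not the spread between libraries. Of the 76 reads, 73 were in Control replicate 1. Without that library it was 1 read against 3, too few for a fold. Without Control 8-cell replicate 1 the values were -0.53 (adjusted p = 0.546) for CDK4, -0.42 (adjusted p = 0.654) for CDK6 and -0.85 (adjusted p = 0.39) for CCND3. Most of the somatic cell markers were lower after METTL7A too. Of 17 markers tested, 14 had a log2 fold change below 0 and 3 above it (median -2.33). Those 3 were HAS2 (0.40), FBN1 (0.24) and STAR (0.16). The test called 6 markers lower and 0 higher, where 4.55% of all genes were called lower and 0.737% higher. Among the 6, the matrix gene LUM stood at 1.26 and 1.51 CPM in METTL7A-injected 8-cell embryos against 4782 and 667 CPM in Control 8-cell embryos. The intermediate filament gene VIM, also among them, stood at 1.85 and 6.11 CPM in METTL7A-injected 8-cell embryos against 612 and 64.3 CPM in Control 8-cell embryos. Of the 18 markers, FSHR was at 0 in both injected libraries and CYP11A1 in one, and none was at 0 in Control 8-cell libraries. What part somatic cells, if any were present, have in the levels of CDK4, CDK6 and the D cyclins was not tested.

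**Figure D5:**
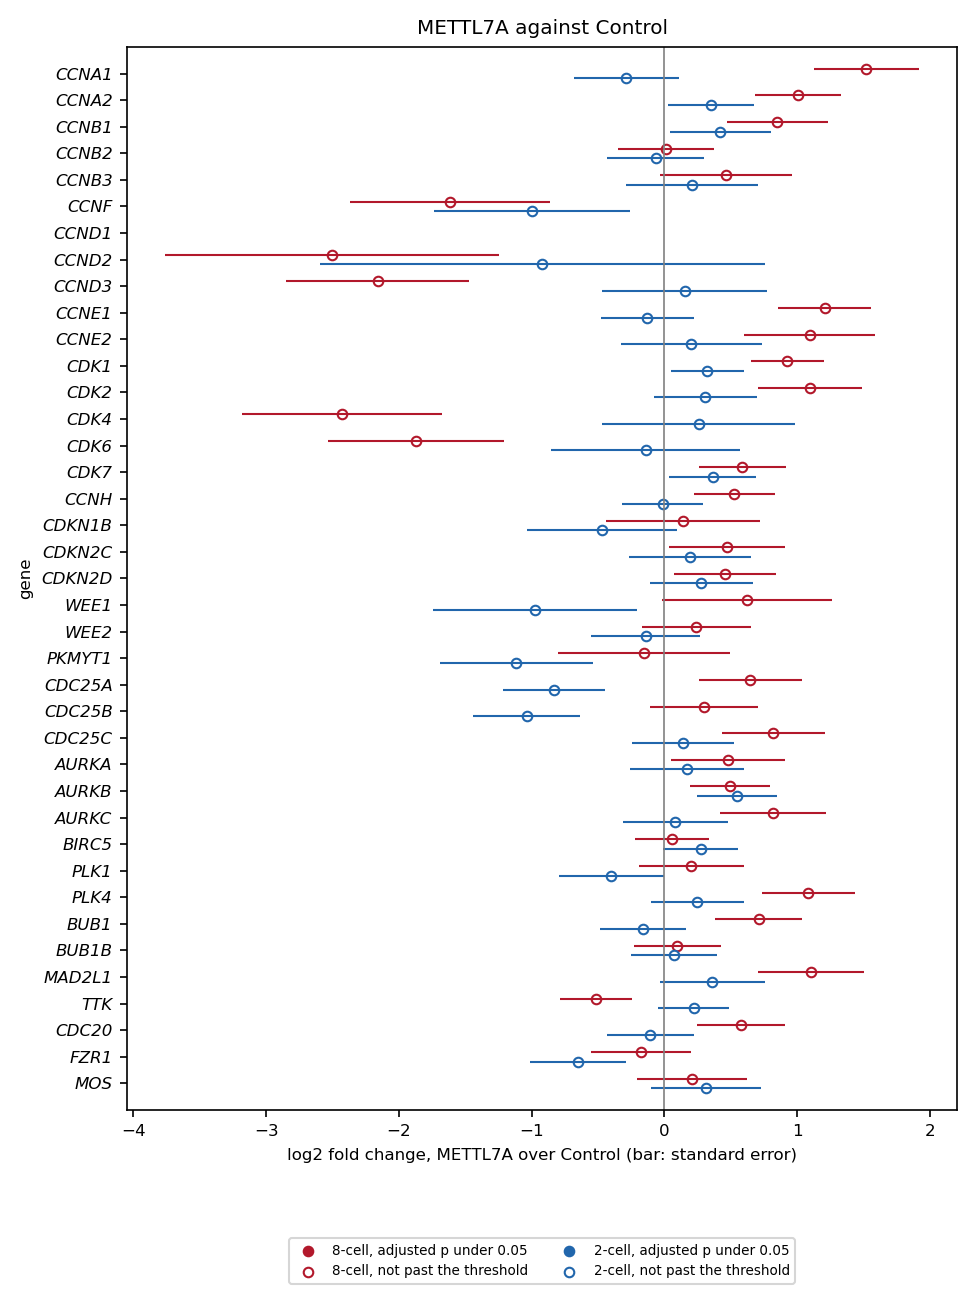
Log2 fold change of each gene from edgeR, METTL7A-injected over Control, at the 8-cell (red) and 2-cell (blue) stage, with the standard error as a bar; open points mark adjusted p of 0.05 or more, and no gene has a filled point (CCND1 was not tested). At the 8-cell stage CCNA1 (1.52) lies farthest right and CCND2 (-2.50) farthest left.

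At the 2-cell stage 0 of the 38 genes passed the test between METTL7A-injected and Control embryos, where 0.0124% of all genes were called, with 1 gene at an unadjusted p under 0.05 (7.41% of all genes) and 0 calls by DESeq2 (0.577% of all genes). The median log2 fold change was 0.11 against 0 over all genes. The libraries of the groups did not overlap in 24 genes (14 higher and 10 lower after METTL7A). The same held for 57.4% of all genes, 26.9% higher and 30.5% lower, and the Control pair was the one whose counts differed least. The gene with the smallest p was CDC25B, at 58.5 and 88.4 CPM in METTL7A-injected 2-cell embryos against 147 and 155 CPM in Control 2-cell embryos, with a log2 fold change of -1.04 (adjusted p = 0.627, SE 0.41). It was called in a fit of the 2-cell libraries alone, at -0.99 (adjusted p = 0.049), where 7.17% of all genes were called. CDC25A had 117 and 199.9 CPM in METTL7A-injected 2-cell embryos against 275 and 287 CPM in Control 2-cell embryos, with -0.83 (adjusted p = 0.696). PKMYT1 had 3.13 and 4.47 CPM in METTL7A-injected 2-cell embryos against 7.84 and 8.65 CPM in Control 2-cell embryos, with -1.11 (adjusted p = 0.747). For these 3 genes of the CDK1 switch, and for FZR1 and PLK1, both injected libraries were below both Control libraries. In the same switch WEE1 and WEE2 also lay below Control, and CDC25C overlapped. The named genes are some of the 10 lower ones without overlap, and AURKB and CCNB1 are some of the 14 higher ones. No gene passed the test, so their levels are given as a description. FZR1 had 13.9 and 15.4 CPM in METTL7A-injected 2-cell embryos against 22.7 and 23.2 CPM in Control 2-cell embryos. PLK1 had 299 and 335 CPM in METTL7A-injected 2-cell embryos against 425 and 411 CPM in Control 2-cell embryos. AURKB and CCNB1 were higher in both injected libraries than in either Control library. AURKB had 157 and 128 CPM in METTL7A-injected 2-cell embryos against 101 and 94.6 CPM in Control 2-cell embryos, with 0.55 (adjusted p = 0.776). CCNB1 had 2709 and 2554 CPM in METTL7A-injected 2-cell embryos against 2025 and 1904 CPM in Control 2-cell embryos, with 0.42 (adjusted p = 0.894).

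Whether the change between stages depended on METTL7A was tested directly. The difference of the stage change, METTL7A minus Control, passed the test in 0 of the 38 genes, where 0.0124% of all genes were called, with 0 calls by DESeq2 (3.76% of all genes). At an unadjusted p under 0.05 there were 6 (15.8%), against 16% of all genes. The values of smallest adjusted p were 1.81 (adjusted p = 0.205, SE 0.56) for CCNA1, and 1.34 (adjusted p = 0.25, SE 0.50) for CCNE1 and 1.48 (adjusted p = 0.25, SE 0.55) for CDC25A. For the genes called between stages in one treatment and not in the other, the difference was 0.65 for CCNA2, 0.38 for WEE2, 0.68 for CDC20, -2.69 for CDK4, -1.59 for CCND2, -2.31 for CCND3, 0.54 for CCNH and 0.74 for AURKC, with adjusted p = 0.264 to 0.778. In a fit that lacked Control 8-cell replicate 2, 19 genes were called, 15 higher and 4 lower, where 26.1% of all genes were called (13.2% higher and 12.9% lower), and without replicate 1 none was.

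A wider list of 96 other cell cycle genes, of which 95 were in the table and tested, was counted in the same way. After METTL7A 25 were higher at the 8-cell stage, 16 lower and 54 not called, and in Control 24 were higher, 23 lower and 48 not called, that is 43.2% and 49.5% against the 40.2% and 52.7% of all genes. UBE2C, the ubiquitin-conjugating enzyme of the anaphase-promoting complex, had 1215 and 1660.5 CPM in METTL7A-injected 8-cell embryos and 889 and 964 CPM in Control 8-cell embryos. UBE2C at the 2-cell stage stood at 176 and 123 CPM in METTL7A-injected embryos, against 74.3 and 77.9 CPM in Control embryos. Its log2 fold changes were 3.27 (adjusted p = 0.000144) after METTL7A and 3.61 (adjusted p = 0.00012) in Control. GMNN, geminin, which blocks a second firing of replication origins, had 989 and 1392 CPM in METTL7A-injected 8-cell embryos and 410.2 and 739 CPM in Control 8-cell embryos. For GMNN the 2-cell libraries held 102 and 98.4 CPM in METTL7A-injected embryos and 81.0 and 79.7 CPM in Control embryos. CCNC, a cyclin of the Mediator kinase module, had 54.1 and 93.6 CPM in METTL7A-injected 8-cell embryos and 60.9 and 56.1 CPM in Control 8-cell embryos. CCNC had 2-cell values of 5.41 and 5.31 CPM in METTL7A-injected embryos and 4.25 and 3.33 CPM in Control embryos. The log2 fold changes were 3.57 after METTL7A and 2.84 in Control for GMNN and 3.78 after METTL7A and 3.94 in Control for CCNC. These 3 genes rose in both treatments, as did SKP1, a ubiquitin ligase subunit, and CDC26, a subunit of the anaphase-promoting complex. The genes named from this list are the 8 of smallest adjusted p in each stage comparison. They are its extremes and do not stand for the list as a whole.

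MAD1L1, which carries MAD2L1 to kinetochores, fell while MAD2L1 rose. It had 13.4 and 6.53 CPM in METTL7A-injected 8-cell embryos and 2.98 and 5.17 CPM in Control 8-cell embryos. MAD1L1 at the 2-cell stage stood at 51.8 and 41.9 CPM in METTL7A-injected embryos, against 56.2 and 57.7 CPM in Control embryos. The log2 fold changes were -2.23 (adjusted p = 0.00371) after METTL7A and -3.81 (adjusted p = 0.000329) in Control. FBXO43, known as EMI2, which keeps the egg arrested by blocking the anaphase-promoting complex, had 67.6 and 75.1 CPM in METTL7A-injected 8-cell embryos and 24.4 and 38.4 CPM in Control 8-cell embryos. For FBXO43 the 2-cell libraries held 183 and 239 CPM in METTL7A-injected embryos and 163 and 158 CPM in Control embryos. E2F4, a transcription factor that represses cell cycle genes in quiescent cells, had 19.0 and 17.9 CPM in METTL7A-injected 8-cell embryos and 14.99 and 20.4 CPM in Control 8-cell embryos. E2F4 had 2-cell values of 61.0 and 70.8 CPM in METTL7A-injected embryos and 90.6 and 100.3 CPM in Control embryos. Both fell in METTL7A-injected and in Control embryos, and each 8-cell library was below each 2-cell library. Their log2 fold changes were -1.56 after METTL7A and -2.35 in Control for FBXO43 and -1.84 after METTL7A and -2.43 in Control for E2F4. CKS2 and CKS1B, small proteins that bind CDKs, rose in both treatments, CKS2 with 4928 and 7699.5 CPM in METTL7A-injected 8-cell embryos and 1620.4 and 2834 CPM in Control 8-cell embryos. CKS2 at the 2-cell stage stood at 471 and 333 CPM in METTL7A-injected embryos, against 304 and 348 CPM in Control embryos. SGO2, the protector of centromere cohesion, rose as well, with 423 and 529 CPM in METTL7A-injected 8-cell embryos and 164 and 258 CPM in Control 8-cell embryos. For SGO2 the 2-cell libraries held 81.4 and 82.8 CPM in METTL7A-injected embryos and 59.0 and 58.8 CPM in Control embryos. Stage changes were 3.97 after METTL7A and 2.77 in Control for CKS2 and 2.53 after METTL7A and 1.84 in Control for SGO2, as log2 fold changes. Between METTL7A-injected and Control embryos 0 of the 95 genes passed the test at either stage (at an unadjusted p under 0.05, 27.4% at the 8-cell and 7.37% at the 2-cell stage, against 26.6% and 7.41% of all genes), and the median was 0.45 against 0.14 over all genes at the 8-cell stage.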

How the data were processed

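The authors deposited raw read counts, whole numbers for each gene, for the 2-cell and 8-cell embryos. Per the submitters' processing notes, Trim Galore 0.6.10, FastQC, STAR 2.7.11b, Subread 2.0.6 and DESeq2 1.44.0 were used; build and gene models: not given in the sources used here. Per the labels' protocols, embryos went into SMART-Seq v4 cDNA synthesis without RNA extraction and into Nextera XT libraries, which do not mark the strand. Columns were matched to samples by name. An entry that names no gene, with 0.184% to 0.95% of a library's counts, was left out. The table of blastocyst tissues has Ensembl identifiers that were not paired with symbols, and it was not used here.

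The main test was edgeR 4.0.16 (R 4.3.3, limma 3.58.1) with 1 coefficient per group over all 8 libraries, TMM factors, filterByExpr (minimum count 10, minimum total 15), robust quasi-likelihood tests and Benjamini-Hochberg adjustment over all genes tested, 2-sided, threshold 0.05. The fit was run on simulated data that had the same spread in every group. The spread of these libraries differed between groups, so that run does not give the error rate here. DESeq2 1.42.0 served as an alternative. SE is the size of the log2 fold change divided by the square root of the F statistic. Whether replicates are separate pools of embryos is not stated in the labels; p-values then reflect the variation among these libraries alone, and that may be technical. All 39 genes were described by role; values in each library were given for those called or set beside a relative. The genes, lists and alternatives were chosen with earlier results of these data known.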

Additional observations from a re-analysis of the deposited data

How the results depend on the processing

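Of the 23 calls between stages in Control embryos 17 held under all 16 alternatives, and of the 21 after METTL7A 14 did; no call reversed. Called counts stayed within 1.5 times of the stated ones: 18 to 29 in Control and 15 to 28 after METTL7A when 1 library was left out. METTL7A against Control at the 8-cell stage gave 0 genes, against 9 with DESeq2 (CCND1, CCND3, CDK4 and CDK6 lower, CCNA1, CCNA2, CCNE1, CDK1 and MAD2L1 higher), 7 without the low-count filter and 0 to 25 without 1 library. The other 8-cell alternatives gave 0, except the replicate block, which gave 2. Of all genes 2767 of 24082 were called there without the filter and 1083 of 16149 with the block. At the 2-cell stage METTL7A against Control gave 0 and, in a fit of those groups alone, 1. The difference of the stage change gave 0, against 1 without the filter (CDK4) and 0 to 19 without 1 library. The cause was not tested. In fits of the compared groups alone the Control calls of CCNA1, CCNA2, CDK4, WEE2 and CDKN2D were lost, and with the Control 2-cell libraries summed those of CCNA1, CCND2, CDK4 and CDKN2D. After METTL7A the calls of CCNH, CDKN2D and AURKC were lost with those libraries summed, with total counts, and without METTL7A and LOC781439. CDKN2D was also lost without the low-count filter in both treatments and, in Control, with total counts and with the replicate block. Calls were also gained. After METTL7A these were CCNA2, WEE2, CDC20 and MOS with total counts and without METTL7A and LOC781439, CDC25C with DESeq2 size factors, and CCND2, WEE2 and CDC25C with DESeq2. Without the filter CCND2, WEE2, CDC25C, CDC20 and MOS were gained after METTL7A, and CCNB3 and MOS in Control. Fits of the compared groups alone gained CCNA2, CCNB3, WEE2, CDC25C, CDC20 and MOS after METTL7A.

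Deviations of same-numbered replicates were little correlated between groups (-0.03 to 0.06). Each group gives a single difference of replicates, so these values cannot show whether same-numbered libraries shared a collection or batch. A fit with the replicate block called 2 genes between METTL7A and Control 8-cell embryos, CCNA1 and CCNE1, where it called 1083 of all 16149 genes. It called 0 at the 2-cell stage, against 2 of all genes, and 0 for the difference, against 24. Between stages it called 21 genes after METTL7A and 22 in Control, against 6462 and 8296 of all genes.

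Over all genes, METTL7A against Control at the 8-cell stage gave 854 calls, 2357 with DESeq2, 2767 without the filter, 283 in the groups alone, 1386 with total counts and 2 to 7129 without 1 library, the 2 without either METTL7A-injected 8-cell library and the 7129 without Control 8-cell replicate 2. At the 2-cell stage it gave 2, 139, 100 and 1005, 0 without METTL7A and LOC781439, and 2 to 50 without 1 library. The difference gave 2, 906 with DESeq2, 1354 without the filter, 24 with the block, 3 with total counts, 1 with DESeq2 size factors or without METTL7A and LOC781439, 0 with the Control 2-cell libraries summed and 0 to 4568 without 1 library. Between stages the range without 1 library was 3276 to 9149 after METTL7A and 5127 to 10759 in Control, against 6496 and 8516. Summing the Control 2-cell libraries gave 5404 in Control. Adding 1 count in place of 0.5 turned no ratio between relatives round.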
